A study of Mus musculus with 12 samples.

Results

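The comparison of Dnmt3a overexpression with a GFP control was made in adipocytes of the 3T3-L1 line, which are obtained in the dish from mouse fibroblast-like precursors. Its members were 6 of the 12 RNA-seq libraries of the series, the 3 labelled GFP and the 3 labelled Dnmt3a, and 14168 of the 27473 features in the deposited table had enough counts to be tested. All libraries came from cells of the 3T3-L1 line that were differentiated with dexamethasone (1 uM), IBMX (0.5 mM) and insulin (5 ug/ml) up to day 2, given insulin for 2 more days, and transduced with lentivirus on day 8. The GFP and Dnmt3a groups carried a pCDH vector with either insert and differed, as labelled, only in that insert. The labels give 2 days with the virus and a harvest 4 days after transduction, whereas the methods of the study give a shorter contact with the virus. The other libraries carried a hairpin (shScr, a scrambled control, and shDnmt3a), with 3 libraries a group, and are used here only for levels set side by side. No source read here states whether each library had a culture of its own, and the p-values therefore reflect only how far these libraries differed, possibly for technical reasons. The cells are a single line kept in culture, and the sources used here do not give the share of cells that took up the virus.

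Dnmt3a is a de novo DNA methyltransferase, which places methyl groups on cytosines of CpG dinucleotides that were not methylated before, whereas Dnmt1 with its partner Uhrf1 copies existing methylation after replication. Methylation of a promoter often goes together with low transcription of its gene. In adipocytes the main transcriptional programme is run by Pparg and Cebpa, which drive genes for lipid uptake, lipid storage and adipokine secretion, and inflammatory signalling through NF-kB is known to counter insulin action in these cells. The study asked whether a higher level of Dnmt3a alone alters adipocytes in the direction of insulin resistance.

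Dnmt3a itself stood at 91.5, 89.3 and 95.6 CPM (counts relative to the library total, scaled between the 6 libraries by the TMM method) in the GFP libraries and at 2696, 2754 and 2704 CPM in the Dnmt3a libraries. The groups were far apart, with 29.5 times as much in the Dnmt3a libraries (log2 fold change 4.88, SE 0.041, adjusted p = 4.18e-43 by the quasi-likelihood test of edgeR, adjusted by Benjamini-Hochberg, as is every adjusted p given here). Transcripts of the vector and of the cell's own gene fall on the same feature and cannot be told apart. Total counts were 34796944 to 47341091 in the GFP libraries and 29084732 to 40762934 in the Dnmt3a libraries, and the common biological coefficient of variation was 3.98%. Adipocyte markers were abundant in all 6 libraries, with Fabp4 between 4693 and 6582 CPM and Adipoq between 1724 and 2408 CPM. Of 20 macrophage and leukocyte markers, 9 had enough counts to be tested, with a summed level of 26.1 to 27.1 CPM in the GFP libraries and 29.1 to 30.5 CPM in the Dnmt3a libraries (Cd68 and Cd53 called higher, Cd74 lower). What part these cells have in other changes was not tested. Ptprc and Emr1, which define those cells, were among the markers that did not pass the filter. None of the 6 testable endothelial and muscle markers was called.

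Overexpression of Dnmt3a was followed by many small changes and few large ones. At an adjusted p under 0.05, 2024 genes were called higher (14.3% of those tested) and 1826 were called lower (12.9%), together 27.2% of all genes. The median log2 fold change was 0.22 among genes called higher and -0.26 among genes called lower, and the 5th and 95th percentiles over all genes tested were -0.48 and 0.34. Changes by a log2 of at least 1 were rare, with 24 genes higher (0.169%) and 79 genes lower (0.558%), and of these 17 and 49 had a mean level below 1 CPM. By a log2 of at least 0.5, 126 genes were higher and 365 lower. The losses were therefore larger in fold, but the gains lay in more abundant transcripts. The summed level of the genes called higher, Dnmt3a itself included (2626 CPM), rose by 62135 CPM, and that of the genes called lower fell by 19339 CPM. The balance of these sums depends on the scaling, as CPM scaled by TMM do not add up to the same total in each library. The TMM factors were 1.019 to 1.026 in GFP and 0.973 to 0.980 in Dnmt3a. When genes were divided by level into 5 classes of equal size, 32.8% of the class with the highest level were called higher and 13.3% lower, against 1.62% and 5.12% of the class with the lowest level. The groups did not overlap, with all Dnmt3a libraries above all GFP libraries, in 20.1% of all genes tested, and with all below in 19.5%. When counts were scaled by library totals alone, 1177 genes were called higher and 3286 lower, so that 26.4% of calls were upward in place of 52.6%.

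**Figure D1:**
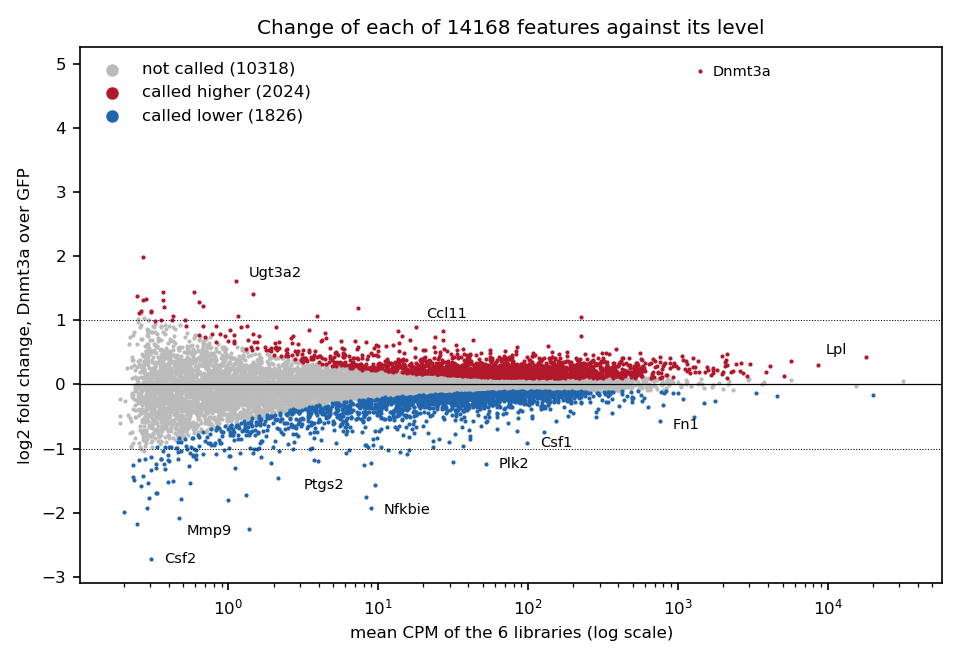
Log2 fold change of Dnmt3a over GFP (vertical axis) against the mean CPM of the 6 libraries (horizontal axis, log scale) for 14168 features, each point a feature, coloured by call, with dotted lines at a log2 of 1 and -1. Dnmt3a lies alone at 4.88, the 2024 genes called higher crowd below a log2 of 1 at high levels, and the 1826 genes called lower reach to -2.72 (Csf2).

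The calls followed the length of the annotated transcript. Among 5 classes of equal size by length, 25.2% of the class of the shortest genes (up to 1719 bases) were called higher and 3.81% lower, and in the class of the longest (5978 bases and more) 7.52% were called higher and 24.3% lower. The slope of log2 CPM on log2 length, taken over genes against the mean of the GFP libraries, was 0.016, -0.017 and 0.0012 in the GFP libraries and -0.052, -0.056 and -0.060 in the Dnmt3a libraries, which lay apart from all GFP libraries. In the hairpin libraries it ranged from -0.054 to -0.028 (shScr) and from -0.025 to -0.0080 (shDnmt3a). An offset for length, chosen after the data were seen, was fitted as a smooth curve in each of the 6 libraries. With it 1739 genes were called higher and 1723 lower, and 75.7% of the original calls were shared. Calls in both directions were then still more frequent in the longest class (13.9% higher and 14.8% lower) than in the shortest (10.3% and 8.86%). What the trend comes from was not tested, and the counts of each group of genes are given with and without the offset where they differed most.

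**Figure D2:**
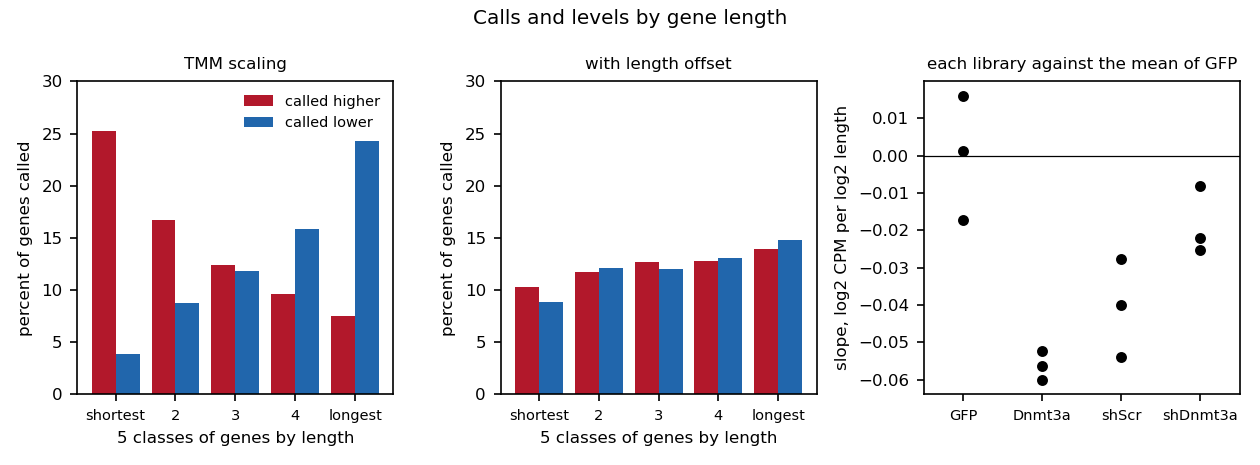
Percent of genes called higher (red) and lower (blue) in 5 classes of genes by transcript length, with TMM scaling alone (left) and with the length offset (middle), and the slope of log2 CPM on log2 length in each of the 12 libraries (right, a point is a library). The shortest class goes from 25.2% to 10.3% called higher with the offset, and the longest from 24.3% to 14.8% called lower.

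Gene groups moved in opposite directions. Of 67 gene lists, 22 had a median log2 fold change above 0.1 and 18 one below -0.1, against a median of -0.0066 over all genes tested. Among the first kind were lists of mitochondrial, lipid-handling, lysosomal, sterol, antioxidant, ribosomal protein and proteasome genes. Among the second were lists of mitotic, interferon-response, cytokine, chemokine, immediate early, growth-signalling, ribosome biogenesis and actin genes. The list of Polycomb and H3K9 methylation, the other main layers of silencing, had 1 of 19 members called higher and 0 lower, which is below the share among all genes (with a library left out, at most 2 and 1, and 0 higher without GFP library 3 or either of Dnmt3a libraries 1 and 2). Scaled by library totals it had 0 higher and 6 lower.

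**Figure D3:**
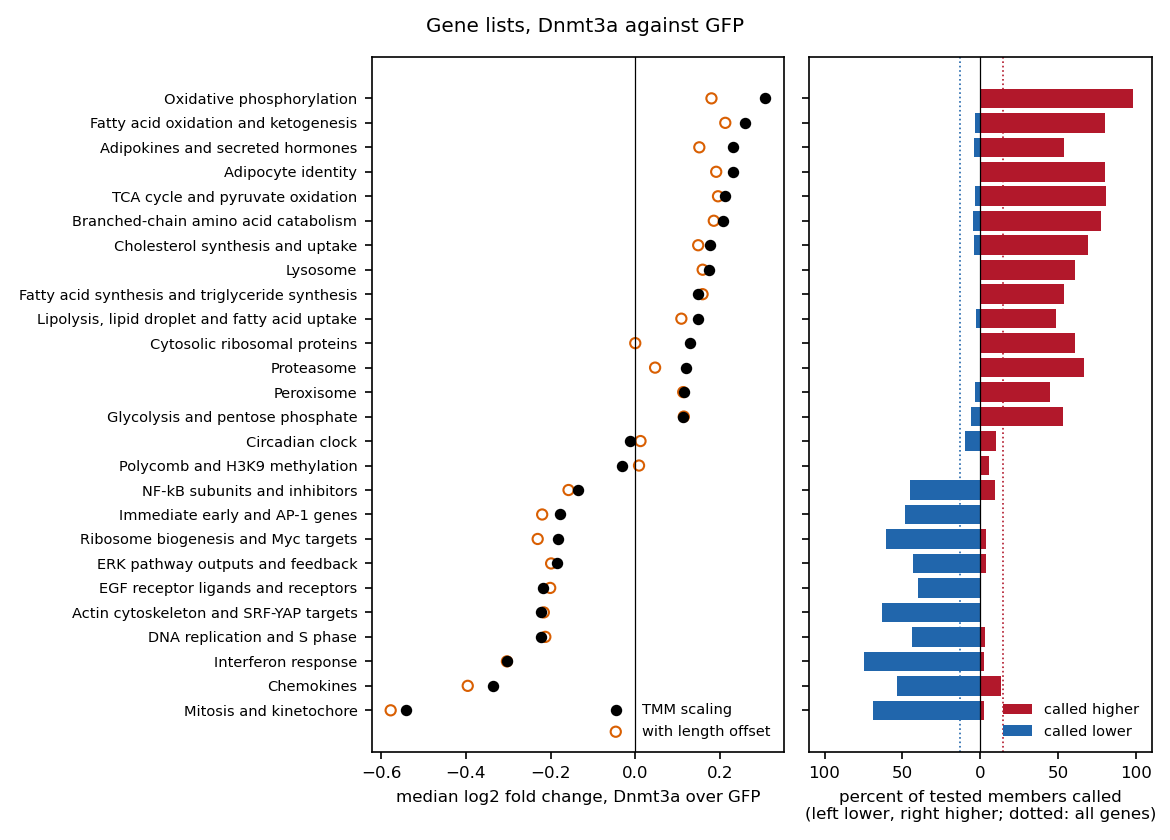
Left, the median log2 fold change of the tested members of 26 gene lists with TMM scaling (black) and with the length offset (open orange). Right, the percent of tested members called lower (blue, to the left) and higher (red, to the right), with dotted lines at the percent over all genes (12.9% and 14.3%). Oxidative phosphorylation is at the top with a median of 0.31 and mitosis at the bottom with -0.54.

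Genes of inflammatory signalling were called lower more often than higher. Of 22 genes of NF-kB subunits, inhibitors and adaptors, 10 were called lower and 2 higher (median -0.14, 19 of 22 below 0). Nfkbie, an inhibitor that is itself a target of NF-kB, stood at 12.3, 12.8 and 17.6 CPM in GFP and at 3.15, 4.14 and 3.88 CPM in Dnmt3a (log2 fold change -1.93, SE 0.12, adjusted p = 9.70e-15). Relb, a subunit of the non-canonical pathway, stood at 34.1, 29.2 and 34.2 CPM and then at 18.03, 18.07 and 18.05 CPM (-0.85). Both sets were clear of each other, with the lowest GFP library above the highest Dnmt3a library. The kinase Map3k14 (-0.65), the adaptor Traf1 (-1.54, at a mean below 1 CPM), the feedback deubiquitinase Tnfaip3 (-0.39), Birc3 (-0.51) and Nfkb1 (-0.21) were called lower as well. Nfkb2 (0.33) and Ikbkg (0.15) went the other way, and only 1 of them was called without Dnmt3a library 1.

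Chemokines, many of which are known targets of this pathway, were lower by a larger median. Of 15 chemokines tested, 8 were called lower and 2 higher (median -0.34). Ccl2, which attracts monocytes, stood at 18.8, 23.2 and 21.5 CPM in GFP and at 9.30, 10.6 and 10.2 CPM in Dnmt3a (-1.08, SE 0.079, adjusted p = 7.12e-13). Ccl7 (-0.48), Cxcl10 (-0.62), Ccl17 (-0.92) and Cxcl12 (-0.44, from a mean of 421 to 310.4 CPM) were lower too. Ccl11, which attracts eosinophils, moved in the opposite direction, at 11.8, 13.1 and 12.2 CPM in GFP and 23.5, 22.5 and 23.2 CPM in Dnmt3a (0.90, adjusted p = 9.91e-13), as did Ccl6 (0.43). In neither chemokine did the groups overlap.

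Among 21 cytokines and interleukins, 6 were lower and 1 was higher. Csf1, the growth factor of macrophages, was the most abundant of those that fell by a log2 of more than 0.5, at 130.4, 126 and 131 CPM in GFP and 68.9, 65.9 and 71.2 CPM in Dnmt3a (-0.91, SE 0.041, adjusted p = 1.74e-18). Il6 (2.99, 2.96 and 2.80 CPM, then 1.87, 1.72 and 1.55 CPM) and Lif (-1.12) were at low levels. Csf2 fell by 2.72 on the log2 scale, at 0.577, 0.342 and 0.673 CPM in GFP and 0.0567, 0.105 and 0.0752 CPM in Dnmt3a, which are levels of a few reads a library. Tnf had 0 counts in the GFP libraries and 1 count in all in the Dnmt3a libraries, so that no change could be measured. Of 26 cytokine receptors, 11 were lower and 4 higher, with Il1rl1, the receptor of IL-33, from a mean of 15.7 to 7.73 CPM (-1.03) and Osmr from 137 to 104.98 CPM (-0.38).

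The acute-phase and innate proteins divided. Ptx3, a pentraxin, stood at 42.9, 45.8 and 42.5 CPM in GFP and 18.9, 18.3 and 19.3 CPM in Dnmt3a (-1.21, adjusted p = 2.35e-18), and the complement genes C3 (-0.72) and Cfb (-0.39) were lower. Orm1 (0.43), Serpina3n (0.42), Cfd (0.29) and Cp (0.26) were higher, and over the list 6 of 23 were called higher and 5 lower. Ptgs2, the inducible enzyme of prostaglandin synthesis, stood at 12.2, 12.8 and 13.2 CPM and then at 3.06, 4.91 and 3.48 CPM (-1.76, SE 0.11, adjusted p = 1.18e-14). Each Dnmt3a library was thus far below each GFP library. The prostaglandin receptor Ptger4 was lower with it (-0.61), whereas Hpgds (0.45) and Pla2g16 (0.33) were higher.

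**Figure D4:**
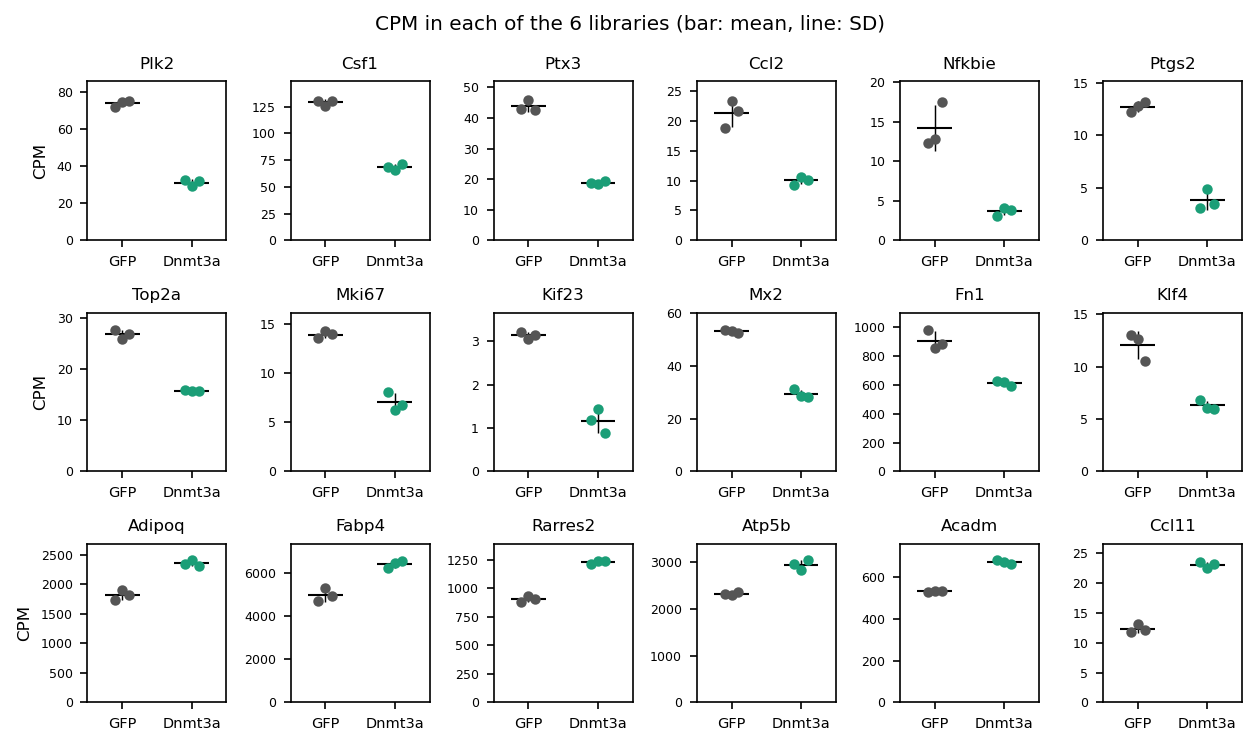
CPM (vertical axes, from 0) of 18 named genes in each of the 3 GFP libraries (grey) and the 3 Dnmt3a libraries (green), with the mean as a bar and the SD as a line. The groups overlap in none of the panels, with Plk2 at 72.3 to 75.5 against 29.3 to 32.4 CPM and Adipoq at 1724 to 1900.4 against 2308 to 2408 CPM.

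Immediate early genes were either called lower or not called. None of 31 immediate early and AP-1 genes was called higher (1 without Dnmt3a library 3) and 15 were called lower (median -0.18, and 19 lower with the length offset). Plk2, a serum-inducible kinase, stood at 72.3, 74.6 and 75.5 CPM in GFP and 32.4, 29.3 and 32.1 CPM in Dnmt3a (-1.24, SE 0.048), which was the smallest adjusted p of any gene called lower (1.73e-20). Gadd45b, a stress-inducible gene, stood at 13.6, 14.7 and 14.1 CPM and then at 5.25, 4.67 and 4.44 CPM (-1.56). The transcription factors Klf4 (-0.95), Myc (-0.67), Egr2 (-0.53), Klf10 (-0.46) and Junb (-0.35) were called lower, while Fos, the best known of this class, differed by less than its error (-0.06, SE 0.061, adjusted p = 0.54). Thus the change did not reach every member of the class.

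Of the ligands of the EGF receptor family, 3 were called lower. Nrg1 stood at 29.9, 32.2 and 30.2 CPM in GFP and 15.96, 14.8 and 16.2 CPM in Dnmt3a (-0.97, adjusted p = 2.18e-14), Ereg fell by 1.08 and Hbegf by 0.57 on the log2 scale, and over ligands, receptors and the feedback inhibitor Errfi1 (-0.42) 4 of 10 members were lower and 0 higher. The receptors Egfr (-0.13, adjusted p = 0.64) and Erbb2 (0.06, adjusted p = 0.39) were not called. Of 30 output and feedback genes of the ERK pathway, 13 were lower and 1 higher (0 higher without GFP library 3, Dnmt3a library 1 or Dnmt3a library 2; median -0.19), the lower ones with Hmga2, an architectural chromatin protein (from a mean of 21.5 to 10.6 CPM, -1.02), Ets2 (-0.67), Epha2 (-0.95), Ccnd1 (-0.42) and Dusp5 (-0.47). In the TGF-beta, activin and BMP list 9 of 32 were lower, led by Grem1 (-1.004), Inhba (-1.001) and Skil (-0.41). On the same list 4 members, among them Tgfb1 (0.28), were called higher, but 1 when GFP library 3 was left out, 2 when Dnmt3a library 1 was, and 1 with scaling by library totals.

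Genes of cell division were lower, at low levels. Differentiated adipocytes have left the cell cycle, and transcripts of mitosis are then scarce. Of 45 genes of mitosis and the kinetochore, 31 were called lower and 1 higher (median -0.54, 42 of 45 below 0), and with the length offset 32 and 0. With a library left out 25 to 29 of the mitosis genes were called lower. Their summed level was 311, 320.3 and 320.2 CPM in GFP and 256, 244 and 253 CPM in Dnmt3a. Top2a, the topoisomerase of dividing cells, stood at 27.6, 25.9 and 26.9 CPM and then at 15.96, 15.7 and 15.8 CPM (-0.76, SE 0.062, adjusted p = 7.72e-12). Mki67, which encodes the proliferation marker Ki-67, stood at 13.5, 14.3 and 13.9 CPM and then at 8.05, 6.25 and 6.74 CPM (-0.98). Kif23, a kinesin of cytokinesis, gave the largest fold of the list, at 3.21, 3.06 and 3.14 CPM and then 1.19, 1.44 and 0.877 CPM (-1.45, adjusted p = 7.03e-08). In none of Top2a, Mki67 and Kif23 did the groups overlap. Plk1 was the exception, at 30.3, 34.7 and 34.2 CPM in GFP and 36.8, 35.5 and 40.9 CPM in Dnmt3a (0.20, adjusted p = 0.0096), a call that was lost without GFP library 1, without Dnmt3a library 3 and with the offset. In bulk RNA fewer cells in division and less of these transcripts in each cell cannot be told apart, here and for the other groups of genes.

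**Figure D5:**
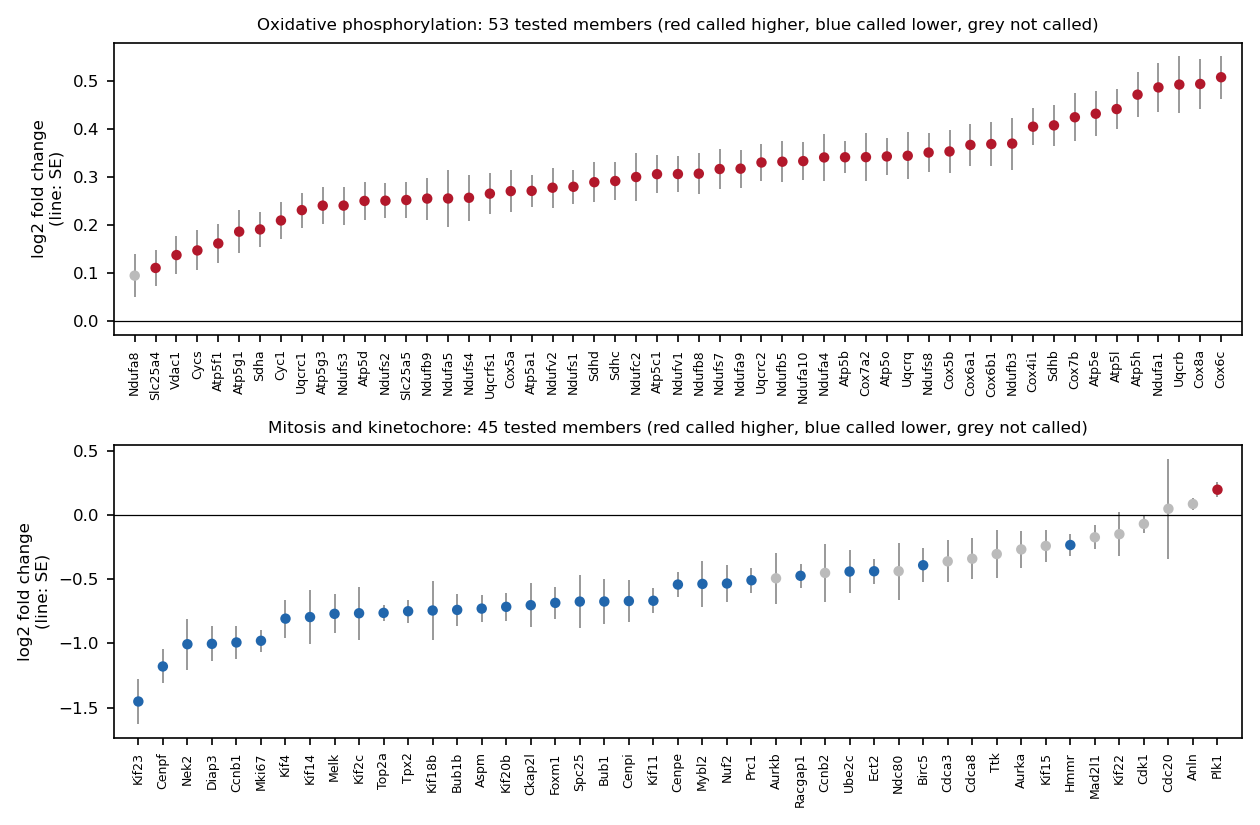
Log2 fold change of Dnmt3a over GFP with its SE (vertical axes) for each of 53 tested genes of oxidative phosphorylation (top) and 45 of mitosis and the kinetochore (bottom), in order of fold change. All 53 of the first are above 0 and 52 are called higher, and 31 of the second are called lower, from Kif23 at -1.45.

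Mitotic promoters commonly carry the letters TTTGAA close to their start, the core of the element named CHR (cell cycle genes homology region). Promoter sequences of RefSeq (GRCm38.p6, 250 bases before to 50 after the start) were matched to 43 of the 45 mitosis genes. The letters, searched on both strands, were present in 31 of these 43 promoters (72.1%) against 18.1% of all 27025 promoters, and their first base lay within 50 bases of the start in 65.1% against 4.92%. They did not mark the genes that were called: 19 of 30 promoters of members called lower held them, and 11 of 12 of members not called. The 4 members called lower with the smallest p whose promoter held the letters are shown to place them, in capitals, on either strand.
Top2a (chr11:99024140-99024439, minus strand): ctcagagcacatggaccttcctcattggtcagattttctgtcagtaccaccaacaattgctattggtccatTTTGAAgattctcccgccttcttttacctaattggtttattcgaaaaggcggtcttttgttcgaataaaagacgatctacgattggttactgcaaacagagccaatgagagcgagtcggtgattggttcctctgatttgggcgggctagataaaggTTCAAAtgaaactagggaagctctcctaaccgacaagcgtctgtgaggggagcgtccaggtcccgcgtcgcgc
Mki67 (chr7:135716330-135716629, minus strand): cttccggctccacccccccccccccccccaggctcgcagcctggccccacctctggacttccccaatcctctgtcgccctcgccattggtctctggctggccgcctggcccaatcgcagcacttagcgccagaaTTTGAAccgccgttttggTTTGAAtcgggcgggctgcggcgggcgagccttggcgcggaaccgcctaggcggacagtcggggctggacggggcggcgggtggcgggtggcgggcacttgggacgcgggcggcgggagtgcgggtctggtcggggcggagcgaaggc
Cenpf (chr1:189688037-189688336, minus strand): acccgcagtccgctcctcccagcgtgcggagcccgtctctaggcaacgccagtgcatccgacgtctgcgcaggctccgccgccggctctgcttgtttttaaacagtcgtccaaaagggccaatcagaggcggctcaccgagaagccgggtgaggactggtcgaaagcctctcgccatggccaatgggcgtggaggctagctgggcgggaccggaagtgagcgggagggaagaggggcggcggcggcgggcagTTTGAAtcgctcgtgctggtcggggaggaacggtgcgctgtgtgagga
Kif23 (chr9:61946750-61947049, minus strand): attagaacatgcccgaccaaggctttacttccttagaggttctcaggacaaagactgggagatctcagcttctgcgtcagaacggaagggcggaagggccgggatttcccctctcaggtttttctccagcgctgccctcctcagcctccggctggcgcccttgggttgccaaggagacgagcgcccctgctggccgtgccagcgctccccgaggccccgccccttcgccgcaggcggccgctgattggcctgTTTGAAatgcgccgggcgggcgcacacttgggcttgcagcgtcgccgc
In Cenpf and Kif23, whose levels fell by 1.18 and 1.45 on the log2 scale, the letters began 2 bases after the start, whereas Top2a and Mki67 each held them at 2 places upstream. Over all genes the comparison of promoter letters between calls was void, because a promoter was matched to 72.0% of the tested genes only.

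Genes of DNA replication were lower in part. Of 34 genes of S phase 15 were lower and 1, Rfc4 (0.11), was higher (median -0.22). With a library left out 11 to 13 were lower. Without GFP library 2 the number called higher was 2, and without GFP library 1, GFP library 3, Dnmt3a library 1 or Dnmt3a library 2 it was 0. Among those lower were the helicase subunit Mcm6 (20.5, 20.9 and 20.6 CPM, then 14.8, 13.2 and 13.7 CPM, -0.57), Mcm5 (-0.54) and the ribonucleotide reductase subunit Rrm2 (-0.62). Of 21 cell cycle inhibitors and p53 targets 9 were lower and 5 higher (1 higher and 11 lower with scaling by library totals, 3 higher with the length offset, 3 without GFP library 1, GFP library 3 or Dnmt3a library 2, 2 without Dnmt3a library 1, and 6 of each without Dnmt3a library 3), with Eda2r at -0.86, Trp53 at -0.31 and Mdm2 at -0.17 on the lower side. Cdkn2c, an inhibitor of Cdk4 and Cdk6 that is abundant in adipocytes, rose from a mean of 169.6 to 216 CPM (0.35). Of 28 genes of ribosome biogenesis 17 were lower and 1 was higher (median -0.18), led by Nop58 (-0.46), Mybbp1a (-0.39) and Rrp12 (-0.46).

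Genes of the interferon response were called lower in most cases. Of 47 genes induced by interferon, 35 were called lower and 1 higher (median -0.30, 45 of 47 below 0), and 36 and 1 with the length offset. Their summed level was 2999, 3018 and 3009 CPM in the GFP libraries and 2651, 2648 and 2655 CPM in the Dnmt3a libraries. Mx2, an antiviral GTPase, stood at 53.5, 53.2 and 52.6 CPM and then at 31.2, 28.6 and 28.3 CPM (-0.85, SE 0.051, adjusted p = 4.09e-15). Ifi44 (-0.76), Isg15 (-0.61), Oasl2 (-0.57) and Dhx58 (-0.51) were lower by similar amounts, and the transcription factor Irf7 (-0.27) by less. Ifi27l2a was called higher, at 104, 115 and 107 CPM and then 151, 167 and 174 CPM (0.60), without overlap. Presentation by MHC class I, which interferon also induces, did not move with the list: of 17 members 6 were higher, among them B2m (0.29) and Tapbp (0.20), and 2 were lower, Nlrc5 (-0.16) and Tap1 (-0.33), which stands on both lists. Its median was 0.0077 and changed sign with the length offset and with scaling by library totals, where 4 and 3 members were higher, and 1 was called lower without GFP library 1, GFP library 3, Dnmt3a library 1 or Dnmt3a library 3.

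Transcripts of the extracellular matrix were called in both directions. Of 43 matrix glycoproteins and crosslinking enzymes, 15 were lower and 13 higher, both shares being above the background. Fibronectin (Fn1) stood at 979.9, 853 and 881 CPM in GFP and 628, 616 and 592 CPM in Dnmt3a (-0.56, adjusted p = 8.22e-13). Tenascin C (Tnc, -0.90), versican (Vcan, -0.57), the crosslinking enzyme Loxl4 (-0.96) and Thbs1 (-0.35) were lower with it. On the other side, the laminin chain Lamb3 stood at 69.5, 62.4 and 69.4 CPM and then at 104, 101 and 96.8 CPM (0.59, adjusted p = 1.38e-12). The small proteoglycans Dcn (0.46) and Lum (0.59) and the thrombospondin Thbs2 (0.37) rose as well. Of 22 collagen chains 14 were not called, 3 were called higher, a share near the background, and 5 lower (3 to 7 lower with a library left out, the 3 without Dnmt3a library 1). The fibrillar chain Col1a1 fell from a mean of 215 to 153 CPM (-0.50), and the basement membrane chain Col4a1 was higher (0.20).

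Many genes of the actin cytoskeleton were lower. Of 35 actin genes and targets of SRF and YAP, 22 were called lower and 0 higher (median -0.22), and 22 and 1 with the length offset. Filip1l stood at 18.5, 19.8 and 18.1 CPM and then at 9.67, 8.60 and 8.92 CPM (-1.05), and the abundant filamin Flna fell from a mean of 884 to 708 CPM (-0.32). Tagln2 (-0.51), Cald1 (-0.43) and Myh9 (-0.28) were lower too. Of 12 tubulins and stathmins 7 were lower and 0 higher, with Tubb2b at -1.14. Of 31 integrins and adhesion molecules 10 were lower, 4 higher (1 without Dnmt3a library 3 and 1 with scaling by library totals) and 17 not called, and those lower included the mesenchymal cadherin Cdh11, at 159, 159.7 and 162 CPM in GFP and 102, 92.1 and 93.3 CPM in Dnmt3a (-0.74, adjusted p = 1.07e-15), and Cd44 (-0.77). Preadipocyte and fibroblast markers, in contrast, did not move one way, with 5 of 18 higher (Dcn, Lum and Ly6a among them) and 4 lower (Vim, Sox9, Dlk1 and Pdgfrb).

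Amino acid supply and stress genes were lower in part. Of 31 targets of the integrated stress response 14 were lower and 4 higher (2 with the offset). Slc7a11, which brings in cystine, stood at 30.9, 29.9 and 29.8 CPM and then at 15.2, 15.8 and 17.8 CPM (-0.89, adjusted p = 4.56e-13), and Slc7a1 (-0.65), Ppp1r15a (-0.48) and Trib3 (-0.32) were lower. Psat1, of serine synthesis, rose from a mean of 474 to 599.7 CPM (0.34). Among 20 heat shock genes 7 were lower (4 without Dnmt3a library 3), with Hsph1 at -0.69 and Hsp90ab1 at -0.25, and Hspb8 and Cryab were higher. The ER chaperone Hspa5 was lower (-0.29, from a mean of 1632 to 1339 CPM). Of its list 3 of 25 were higher (12%) and 4 lower (16%), near the shares of all genes (14.3% and 12.9%). With the offset 7 were lower, and with scaling by library totals 10. The drug transporters Abcb1b (11.6, 11.4 and 10.8 CPM, then 4.85, 5.02 and 4.34 CPM, -1.26) and Abcb1a (-1.53, at a mean below 1 CPM) are near copies of each other, so that reads could be shared between them. With them 3 of 25 genes of drug and xenobiotic transport and conjugation were lower (12%, near the 12.9% of all genes). On the same list 11 were higher (44%, against 14.3%). Those higher included Ugt3a2 (1.61, at a mean near 1 CPM), the carboxylesterases Ces1f (0.50) and Ces1d (0.47) and Cyp2f2 (0.48).

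Genes of mitochondrial energy metabolism were higher by small amounts. Of 53 genes of oxidative phosphorylation, all were above 0 and 52 were called higher (median 0.31), and with the length offset 43 were called and the median was 0.18, as most of these transcripts are short. The sum of the list was 13894, 14445 and 14282 CPM in GFP and 17170, 17240 and 17862 CPM in Dnmt3a. Atp5b, a subunit of the ATP synthase, stood at 2319, 2306 and 2360 CPM and then at 2957, 2843 and 3051 CPM (0.34, SE 0.033, adjusted p = 7.40e-10). Cox6c, a subunit of cytochrome oxidase, had the largest fold of the list (0.51). Longer genes of the matrix pathways moved alike: 25 of 31 genes of the TCA cycle and pyruvate oxidation were higher and 1 lower (0 lower without GFP library 3, Dnmt3a library 1 or Dnmt3a library 3; median 0.21; 26 higher with the offset), among them Idh3g (0.42) and Sdhb (0.41). Of 30 genes of fatty acid oxidation 24 were higher and 1 lower (0 lower when any single library but GFP library 2 was left out; median 0.26; 21 higher with the offset), with Acadm at 532, 534 and 533 CPM in GFP and 686, 673 and 664 CPM in Dnmt3a (0.34). Of 22 genes of branched-chain amino acid breakdown 17 were higher, Ivd among them (0.42). The cytosolic transaminase Bcat1 was lower (10.8, 10.4 and 11.6 CPM, then 5.73, 5.86 and 5.49 CPM, -0.94), against its mitochondrial counterpart Bcat2 (0.35).

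For the proteins of translation and of mitochondrial biogenesis the counts moved with length and with scaling. Of 30 genes of mitochondrial biogenesis and protein import 12 were higher and 1 lower (median 0.072; 0 lower without Dnmt3a library 3), but 7 were higher with the offset, and 4 higher and 4 lower with scaling by library totals. Of 39 mitochondrial ribosomal proteins 21 were higher, but 10 with the offset and 11 with library totals. Of 43 cytosolic ribosomal proteins 26 were higher and 0 lower (median 0.13), whereas 7 were higher and 4 lower with the offset (median 0.00018) and 14 were higher with library totals. Of 30 proteasome subunits 20 were higher, 8 with the offset, 6 with scaling by library totals, and 11 to 13 when GFP library 1, GFP library 3 or Dnmt3a library 2 was left out. Clustered histone genes, very short transcripts that mostly lack a poly(A) tail, were higher in 10 of 40 and lower in 0, but higher in 7 and lower in 5 with the offset. Hist1h4i was the clearest of them, from a mean of 26.0 to 40.0 CPM (0.62). Ppargc1a, the coactivator of mitochondrial biogenesis, stood at 71.4, 72.4 and 72.6 CPM and then at 77.3, 76.7 and 74.3 CPM, which was not called (0.08, SE 0.041, adjusted p = 0.169). With the offset it was called, at 0.11 (adjusted p = 0.032).

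Genes of the differentiated adipocyte were higher. Of 30 identity genes, 24 were called higher and 0 lower (median 0.23), and 26 and 0 with the length offset. Adiponectin (Adipoq) stood at 1724, 1900.4 and 1809 CPM in GFP and 2337, 2408 and 2308 CPM in Dnmt3a (0.38, SE 0.036, adjusted p = 3.51e-10). Fabp4, the fatty acid carrier, stood at 4693, 5328 and 4940 CPM and then at 6230, 6470 and 6582 CPM (0.37). Lipoprotein lipase (Lpl) rose from a mean of 7660 to 9496 CPM (0.31). Among called features, only Dnmt3a and DQ539915 (from a mean of 15447 to 20743 CPM, 0.43) gained more CPM than Lpl. In none of Adipoq, Fabp4 and Lpl did the groups overlap. The master regulator Pparg was higher (376, 399 and 381 CPM, then 449.6, 453 and 467 CPM, 0.24, adjusted p = 4.29e-06), and Cebpa by less (0.16). Other adipogenic transcription factors did not share a direction, with 10 of 30 higher and 5 lower (6 higher without GFP library 3, 5 without Dnmt3a library 2 and 1 with scaling by library totals, where the median changed sign), among them Klf5 (-1.80, from a mean of 1.54 to 0.441 CPM), an early factor of adipogenesis.

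Lipid genes rose with them. Of 28 genes of fatty acid and triglyceride synthesis 15 were higher and 0 lower (19 and 0 with the offset), with Agpat2 (0.34), Acss2 (0.32) and Dgat1 (0.25), whereas the most abundant transcript of all, Scd1, was between 30662 and 33373 CPM in all 6 libraries, with groups that overlapped (0.05, adjusted p = 0.211). Of 33 genes of lipolysis, droplets and fatty acid uptake 16 were higher and 1 lower, with Cd36 (0.32), Aqp7 (0.32) and Mgll (0.27). Of 26 adipokines and secreted hormones 14 were higher and 1 lower. Chemerin (Rarres2) stood at 881, 931 and 906 CPM in GFP and 1211, 1241 and 1237 CPM in Dnmt3a (0.44, adjusted p = 4.97e-12), and outside that list the secreted lysophospholipase Enpp2 rose from a mean of 1673 to 2285 CPM (0.45). Of 26 genes of cholesterol synthesis and uptake 18 were higher and 1 lower (0 lower without GFP library 3 or Dnmt3a library 3; median 0.18; 17 higher with the offset), among them Insig1 (0.32), Sc5d (0.35) and Fdft1 (0.27). Of 28 lysosomal genes 17 were higher and 0 lower (18 and 0 with the offset), with Scarb2 (0.39), Psap (0.36) and Ctsd (0.27).

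Iron, glucocorticoid and antioxidant genes gave further members of the higher class. Tfrc, the transferrin receptor, stood at 280.3, 295 and 291 CPM in GFP and 396, 395 and 415 CPM in Dnmt3a (0.48, adjusted p = 7.21e-12), and both ferritin chains were higher, Ftl1 by 0.37 and Fth1 by 0.41. Hsd11b1, which regenerates active glucocorticoid within the cell, stood at 439, 486 and 461 CPM and then at 648, 659 and 637 CPM (0.49, adjusted p = 4.69e-12). The list of glucocorticoid targets itself had 7 of 22 higher and 5 lower, and a median whose sign changed from 0.036 when libraries were scaled by their totals. Of 45 NRF2, glutathione and antioxidant genes 25 were higher and 3 lower (17 and 3 with the offset), and the 3 lower ones, Slc7a11, Hmox1 (-0.33) and Txnrd1 (-0.27), are inducible targets of NRF2.

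Genes of the insulin pathway were called higher about as often as all genes, and lower more often. Of 41 genes of insulin signalling and glucose transport 6 were higher (14.6%, against 14.3% of all genes) and 10 lower (24.4%, against 12.9%). The median was -0.023. With the length offset 10 were higher and 8 lower, and with scaling by library totals 3 and 15, with a median of -0.089. Slc2a4, the insulin-regulated glucose transporter Glut4, stood at 216, 201 and 208 CPM in GFP and 239, 239 and 238 CPM in Dnmt3a (0.20, SE 0.039, adjusted p = 2.12e-04). Sort1, the sorting receptor of Glut4 vesicles, rose more (0.40), and Irs1 differed by less than its error (-0.01, SE 0.039). Trib1 (-0.60) and Trib3 (-0.32), pseudokinases that restrain Akt or target proteins for degradation, and the receptor Igf1r (-0.31) were lower. Fgf21, a hormone of the fasting response, had 5, 11 and 3 counts in the GFP libraries and 2, 2 and 2 counts in the Dnmt3a libraries. These counts did not pass the filter, and without it the log2 fold change was -1.34 with an adjusted p of 0.269. Its co-receptor Klb was higher (0.26) and the ligand Fgf1 was not called. Of 16 thermogenic genes 6 were higher and 0 lower, among them Cox8b (0.52), Cox7a1 (0.47) and Adrb3 (0.28), while Ucp1 had 4 counts in all in GFP and 0 in Dnmt3a.

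Genes of the methylation machinery itself were lower in part. Of 18 members other than Dnmt3a 6 were lower and 0 higher. Uhrf1 stood at 12.2, 12.5 and 13.4 CPM in GFP and 8.51, 7.19 and 7.29 CPM in Dnmt3a (-0.72, adjusted p = 3.27e-08), and the remodeller Hells (-0.48), Dnmt1 (-0.24), the demethylase Tet3 (-0.19) and Gadd45a (-0.24) were among those lower. Dnmt3b, the other de novo enzyme, stood at 2.08, 1.98 and 1.96 CPM and then at 1.96, 2.04 and 1.68 CPM, with groups that overlapped (-0.10, adjusted p = 0.72). Germline genes are commonly silenced by methylation of their promoters. Of 34 with a feature only 14 were tested, as the others did not pass the filter on counts. Among the 14 tested, 4 were higher (28.6%, against 14.3% of all genes) and 0 lower (against 12.9%). Those higher were Sycp2 (0.34), Tex19.1 (0.31), Sycp3 (0.38) and Ctcfl (0.27). The median of the list was nevertheless -0.13, with 8 of the 14 members below 0. Of 22 imprinted genes 3 were higher, Gnas, Sgce and Igf2, and 1 lower, Dlk1 (-0.46). Both shares (13.6% and 4.55%) were below those of all genes (14.3% and 12.9%).

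The larger rises other than that of Dnmt3a were in scarce transcripts. Ugt3a2, a glycosyltransferase, stood at 0.556, 0.783 and 0.280 CPM in GFP and 1.56, 2.04 and 1.504 CPM in Dnmt3a (1.61), Mia2 at 0.803, 0.905 and 0.673 CPM and then 2.04, 1.93 and 2.36 CPM (1.41), and thyroglobulin (Tg) at 2.92, 1.98 and 2.55 CPM and then 4.91, 5.404 and 5.46 CPM (1.07). Among genes above 10 CPM whose groups did not overlap, Ccl11 (0.90) and the keratin Krt79 (0.84) rose most. The largest falls with a mean of at least 1 CPM and no overlap were Nfkbie, Ptgs2, the adhesion molecule Igsf9 (-1.72), Gadd45b and Kif23. Below that level Mmp9, a matrix protease, stood at 0.906, 0.709 and 0.617 CPM and then at 0.142, 0.316 and 0.1003 CPM (-2.09).

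A few calls rested on libraries that differed widely within a group. Lars2 was called higher (1.05, adjusted p = 0.0235), but stood at 24.7, 99.1 and 319.8 CPM in GFP and 423, 312 and 175 CPM in Dnmt3a, so that the groups overlapped. The structural RNAs Rpph1 (0.75) and Rmrp (0.55) were higher, with 356 CPM of Rpph1 in Dnmt3a library 1 and 244 and 252 CPM in the other two. AK018753, an RNA without a gene name that lost the most CPM of any feature, was called at -0.17, but its groups overlapped and its call was lost without GFP library 2 (-0.05, adjusted p = 0.542) and under several other fits.

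The GFP libraries differed from the libraries of the hairpin vector in several of these groups of genes. All medians here are against the same 3 GFP libraries, so that they share them. For the mitosis list the median difference in log2 CPM was -0.55 for Dnmt3a, -0.95 for shScr and -0.81 for shDnmt3a. For the immediate early genes it was -0.19, -1.39 and -0.67, and for the ERK outputs -0.19, -0.61 and -0.52. Plk2 stood at a mean of 75.2 CPM in GFP, 31.6 in Dnmt3a, 25.01 in shScr and 25.3 in shDnmt3a (scaled over 12 libraries), and Ccl2 at 21.5, 10.1, 4.72 and 5.395 CPM. Thus for these genes both hairpin groups lay below GFP as well, which is the side on which Dnmt3a lay. The same held for the NF-kB list, at -0.13 for Dnmt3a, -0.36 for shScr and -0.21 for shDnmt3a. In that order chemokines were at -0.34, -0.39 and -0.48, and actin genes at -0.23, -0.44 and -0.29. Cytokines and interleukins were at -0.18, -0.30 and 0.092, so that there only shScr lay on the side of Dnmt3a. Oxidative phosphorylation was at 0.30 for Dnmt3a, 0.34 for shScr and 0.0018 for shDnmt3a. The interferon list differed, at -0.31 for Dnmt3a but 1.13 for shScr and 0.13 for shDnmt3a, and the adipocyte identity list was at 0.22, -0.021 and -0.058. The part that vector or virus has in the comparison of Dnmt3a with GFP was not tested.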

How the data were processed

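RNA depleted of ribosomal RNA was sequenced from 3 GFP and 3 Dnmt3a libraries. Per the submitters' processing notes and the methods of the study, reads were aligned with TopHat2 (2.0.14) to mm9 and counted with featureCounts (1.4.6). The values used were the deposited raw counts per UCSC transcript feature. The methods of the study describe an mm9 genome altered to reduce the overlap between transcripts. The kit (TruSeq RNA v2) does not mark strand, so that reads where genes still overlap, antisense pairs included, cannot be separated by strand. Features were kept by edgeR's filterByExpr with a minimum count of 10, scaled by TMM over the 6 libraries and tested with edgeR's quasi-likelihood test (4.0.16, R 4.3.3). Called means a Benjamini-Hochberg adjusted p under 0.05.

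The 67 gene lists, the members and the named genes were chosen with earlier results of these data known. Named were Dnmt3a, the 20 largest called changes in each direction (mean of at least 1 CPM, no overlap), the 10 largest gains and losses in CPM, list members and the genes the study discusses. Other scalings, filters, tests (DESeq2 1.42.0), a replicate block and the omission of each library were run as alternatives. The tests were also run on counts simulated from the fitted model itself, without a trend with length. Such a run cannot show how the tests behave where the data depart from that model. Promoters were RefSeq sequences of GRCm38.p6 matched by symbol, and no coordinate was carried over from mm9.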

Additional observations from a re-analysis of the deposited data

How the results depend on the processing

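Scaling by library totals called 1177 genes higher and 3286 lower, in place of 2024 and 1826, and with an adjusted p under 0.01 the count called lower was 1143. Changes by a log2 of at least 1 (24 higher and 79 lower) depended on scarce transcripts: there were 5 and 30 with DESeq2, 7 and 31 with a minimum of 1 CPM in 3 libraries, 41 higher with no filter on low counts, and 12 higher with an adjusted p under 0.01. With a library left out, 1639 to 2050 genes were called higher and 1373 to 1780 lower. The GFP and Dnmt3a libraries share replicate numbers, but the deviations of libraries with the same number correlated at -0.0076, -0.016 and 0.0036. No pairing by number was thus seen. These values cannot tell whether libraries with the same number shared a culture or a day. With the replicate block 2023 genes were called higher and 1830 lower. Dnmt3a, the largest changes and the tested genes that the study discusses were followed gene by gene. Of these, AK018753 lost its call in 7 alternatives, AK140265 with DESeq2, and Ahnak without Dnmt3a library 1 (-0.096) and with the length offset. None of those called changed direction in the alternatives run. Other list members were followed only through the counts of their lists. The cause of the differences was not tested. Depth limits Fgf21, Tnf and Ucp1, which had at most 11 counts in a library.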

Other observations

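Groups of genes that the comparison touched without a shared direction included matrix proteases and the response to hypoxia. Of 32 matrix proteases and inhibitors 9 were called higher (28.1%) and 10 lower (31.25%), against 14.3% and 12.9% of all genes. Of 26 hypoxia genes 7 were higher (26.9%) and 6 lower (23.1%, and 3 lower without Dnmt3a library 2). Timp4, an inhibitor of matrix proteases that is known from adipose tissue, was higher (log2 fold change 0.46), and Timp1 was lower (-0.45). Glycolysis was higher in 17 of 32 genes (53.1%) and lower in 2 (6.25%), with Aldoa at 0.31 and Taldo1 at 0.31. The activating enzyme Pfkfb3 was lower (-0.17). Among receptors for metabolites that inhibit lipolysis, Niacr1 (0.43) and Ffar2 (0.41) were higher. Apolipoprotein D (Apod) was higher by 0.51 and Apoc1 by 0.43, in a list of cholesterol efflux and lipoproteins with 7 of 16 higher (43.75%) and 1 lower (6.25%).

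Fgf21 had 2 to 14 counts in the shScr libraries and 69 to 108 counts in the shDnmt3a libraries, against at most 11 in any GFP or Dnmt3a library.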
